A study of Mus musculus with 6 samples.

Results

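The genes described here encode 5 efflux pumps of the ATP-binding cassette subfamily C (Abcc1, Abcc2, Abcc3, Abcc4 and Abcc5) and the major vault protein (Mvp). They were selected on the presence and score rank of their NRF2 peaks in these data. Every peak that the authors' annotation assigned to 1 of the 6 gene names was taken, at any distance from the transcription start site (TSS). There were 23 such peaks among 16057 in all, and the 6 genes stand among 8030 gene names with a peak. The peaks come from ChIP-seq, the sequencing of DNA that an antibody to NRF2 pulled down from chromatin, in mouse embryonic fibroblasts (MEFs, connective tissue cells) of strain 129S6/SvEvTac. The cells were wild type (WT) or GCN2-/- (called GCN2 KO), without the kinase that senses uncharged tRNA, and grew in complete DMEM or in leucine-free DMEM over 24 h. The labels name 1 NRF2 library for each of these 4 conditions and an input library in complete medium for each genotype, so there are no replicates, and no difference below has a replicate check or a test. The sources used here do not say whether a library's cells came from 1 clone or several embryos, and a peak list measures neither the cell type's marker genes nor the disruption of the GCN2 gene.

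NRF2 is a transcription factor that is stabilised when electrophiles or oxidants modify its repressor Keap1. It then binds antioxidant response elements together with a small Maf protein and activates genes of detoxification. The pumps of subfamily C use ATP to carry glutathione, glucuronide and sulfate conjugates and other organic anions out of the cell, the step that follows conjugation. Vaults are large hollow ribonucleoprotein particles of the cytoplasm whose shell is built of Mvp. This protein is also known as the lung resistance protein of drug-resistant cells. Several of these genes are known as NRF2 targets in liver and other tissues.

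The WT lists held 2336 peaks with leucine and 5980 without it, and the GCN2 KO lists 3141 and 4600. Read depth is unknown. Scores are the authors' own, start at 13 in every list, and are used only to rank and filter peaks within a list, since the quantity behind them is not known. Rank 1 is the highest score, and tied peaks share the best rank. Both lists of a genotype were called against the same input. A site without a peak did not pass the authors' threshold and may still be bound.

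None of the 23 peaks was annotated to a promoter. The closest lay 3610 bp from a TSS and the farthest 71710 bp. Of the 23, 11 were annotated to introns, 11 to intergenic sequence and 1 to an exon. Over all peaks, promoters took 2.7% and 2.69% in WT and 2.13% and 1.54% in GCN2 KO, each with leucine first. Introns took 44.6%, 44.5%, 44.3% and 40.8%, and intergenic sequence 44.3%, 42.5%, 44.6% and 49.3%, in the same order. With so small a promoter share, nothing is read from its absence among 23 peaks. The RefSeq table of promoters (build GRCm38.p6, the assembly of mm10, 250 bases before to 50 bases after each start) held 5 windows for 4 of the 6 genes, Mvp, Abcc2, Abcc4 and Abcc5, and 0 of the 5 overlapped a peak of any list. The start regions of Mvp, which held the highest-ranked peak of the set in each WT list within its first intron, and both starts of Abcc4, from which the distances of its peaks are counted, are shown for their letters. Capitals mark matches, on either strand, to the antioxidant response element core TGACNNNGC or to TGANTCA. The latter is a loose AP-1 pattern that accepts any central base. The patterns can overlap, since a TGACTCA followed by GC meets both. The windows are chr7:127014545-127014844 (minus strand), chr14:118706170-118706469 (minus strand) and chr14:118676882-118677181 (minus strand), each printed 5′ to 3′ along the gene.
Mvp: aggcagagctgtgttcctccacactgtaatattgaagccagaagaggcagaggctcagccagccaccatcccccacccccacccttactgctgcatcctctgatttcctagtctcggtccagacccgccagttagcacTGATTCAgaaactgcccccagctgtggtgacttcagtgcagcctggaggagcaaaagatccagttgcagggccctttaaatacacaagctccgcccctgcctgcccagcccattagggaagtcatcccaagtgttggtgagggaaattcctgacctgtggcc
Abcc4 upstream start: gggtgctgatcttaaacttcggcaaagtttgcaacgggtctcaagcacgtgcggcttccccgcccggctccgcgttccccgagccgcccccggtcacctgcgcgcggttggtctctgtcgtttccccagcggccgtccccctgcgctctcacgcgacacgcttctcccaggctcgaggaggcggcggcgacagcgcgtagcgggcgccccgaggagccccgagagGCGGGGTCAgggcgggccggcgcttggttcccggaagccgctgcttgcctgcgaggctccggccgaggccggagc
Abcc4 internal start: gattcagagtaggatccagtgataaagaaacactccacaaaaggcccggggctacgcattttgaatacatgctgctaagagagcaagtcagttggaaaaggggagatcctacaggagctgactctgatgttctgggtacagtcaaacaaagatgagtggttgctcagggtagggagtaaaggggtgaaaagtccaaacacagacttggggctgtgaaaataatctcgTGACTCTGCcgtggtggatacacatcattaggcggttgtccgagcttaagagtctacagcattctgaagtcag

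The Mvp window held TGATTCA, which ends 106 bases before the start, and no match to TGACNNNGC. Each Abcc4 window held 1 match to TGACNNNGC, as GCGGGGTCA on the opposite strand at the upstream start and as TGACTCTGC at the internal start. They end 17 and 15 bases before those starts. The Abcc2 window held TGACATAGC, which ends 90 bases before the start, and the Abcc5 window held neither pattern. Of all 32851 promoter windows in the table, 12.4% held TGACNNNGC and 7.81% held TGANTCA. These matches describe letters near the starts, where no peak was called. The sequences under the peaks themselves were not used here.

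**Figure D1:**
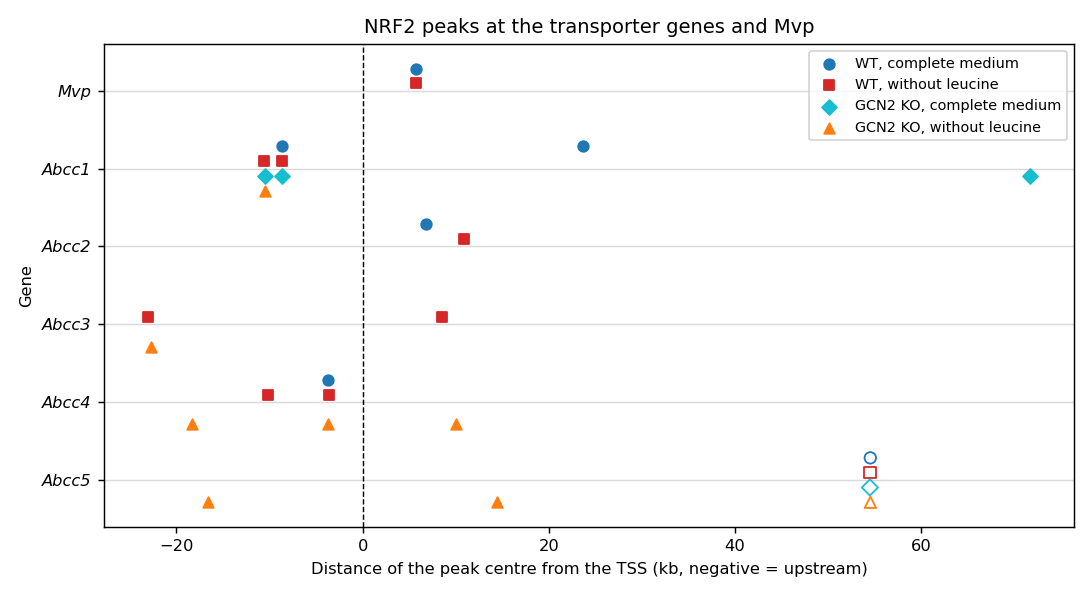
Distance of each peak centre from the TSS in kb (x axis) for the 6 genes (rows), with 1 symbol and colour for each of the 4 lists. Filled symbols are peaks assigned to the gene, and open symbols are peaks inside Abcc5 that the authors' annotation gave to Cyp2ab1. Mvp symbols appear in the WT lists alone, and no symbol lies at the TSS line.

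In WT cells 4 of the 6 genes had an assigned peak in complete medium and 5 without leucine, against 1 with and 4 without leucine in GCN2 KO cells. The corresponding percentages of all 21896 protein-coding genes were 7.92%, 17.3%, 9.89% and 13.5%. Within 10 kb of the TSS the genes with a peak numbered 4, 4, 1 and 1, against 2.28%, 6.17%, 3.03% and 4.03% of protein-coding genes. Nearest-TSS assignment favours genes that are long or stand alone. Among the 7154 protein-coding genes within the length range of these 6 (27735 to 225165 bp), the percentages were 11.3%, 23.8%, 14.0% and 18.4%. The genes were chosen with their peaks known, so these counts are a description and nothing is read from the excess. Abcc1 had a peak in all 4 lists, Abcc4 in all but GCN2 KO in complete medium, Mvp and Abcc2 in both WT lists alone, Abcc3 in both lists without leucine alone, and Abcc5 in GCN2 KO without leucine alone.

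The 23 peaks formed 16 regions when windows that overlapped by at least 1 bp were joined. Of these regions 12 were in a single list, 1 in 2 lists and 3 in 3 lists, and none was in all 4. Among the 14390 regions of the whole series, 93.5% were in a single list and 3.23% in 3 or 4. The regions in 3 lists lay at Abcc1 (2 of them) and Abcc4, and the region in 2 lists lay at Mvp. A gene with a peak in several lists therefore need not have had the same site in each, and this was the case for Abcc2 and Abcc3.

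Mvp, the shell protein of the vault, carried the highest-ranked peak of the set in each WT list. The peak lay in intron 1 of 14, at chr7:127008735-127009035 in complete medium, 5709 bp downstream of the TSS, with score 142 and rank 144 of 2336. Without leucine it lay at chr7:127008717-127009017, 5727 bp downstream, with score 220 and rank 95 of 5980. The window centres were 18 bp apart, so both WT lists held the same site among their upper 6.16% and 1.59% of peaks. Neither GCN2 KO list held it. The nearest KO peaks were 23.6 kb away in complete medium (rank 1318 of 3141) and 21.4 kb away without leucine (rank 1927 of 4600), both beyond the 5′ end of Mvp and assigned to Maz. A peak in both WT lists and neither KO list was assigned to 274 protein-coding genes (1.25%), Mvp and Abcc2 among them, and 149 of the 14390 regions (1.04%) had that pattern. The reverse, both KO lists and neither WT list, held for 220 genes and for none of the 6. With so few genes in either pattern, nothing is read from that absence.

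Abcc1 encodes the pump MRP1, which exports glutathione conjugates, leukotriene C4 and oxidised glutathione. It had the most peaks of the set, 8 in 4 regions, and a pair of sites upstream of the gene accounted for 6 of them. In WT cells in complete medium the nearer site was centred at -8699 bp from the TSS (chr16:14352709-14353009, score 40, rank 985 of 2336). It lay at -8652 bp in WT without leucine (score 161, rank 165 of 5980) and at -8646 bp in GCN2 KO in complete medium (score 51, rank 581 of 3141). Every list except GCN2 KO without leucine thus held the nearer site, a pattern shown by 59 of the 14390 regions (0.410%).

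The farther Abcc1 site was centred at -10566 bp in WT without leucine (chr16:14350842-14351142, score 28, rank 3657 of 5980). In GCN2 KO cells it lay at -10505 bp in complete medium (score 61, rank 383 of 3141) and at -10519 bp without leucine (score 85, rank 288 of 4600). WT in complete medium was the only list without it, as for 51 of the 14390 regions (0.354%). Both sites were intergenic, and the farther windows of the KO lists were annotated to an L2 repeat.

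Both sites of the Abcc1 pair were present in 2 lists. In WT cells without leucine the nearer site ranked above the farther one, at 165 against 3657, and in GCN2 KO cells in complete medium the farther site ranked above the nearer, at 383 against 581. WT in complete medium held the nearer site alone and GCN2 KO without leucine the farther alone, so their order there is not known. Each order rests on 1 library, with no measure of the error of a score. The centres were 1914 and 1859 bp apart in these lists.

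**Figure D2:**
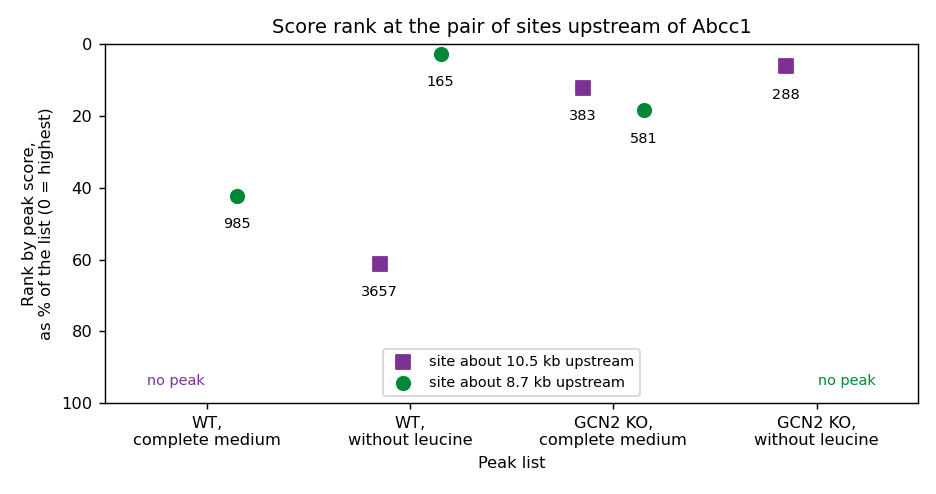
Score rank of the upstream sites of Abcc1 as a percentage of the length of each list (y axis, 0 is the highest score), by list (x axis), with purple squares for the farther site, green circles for the nearer and the rank printed below each symbol. Both symbols appear in WT without leucine, with the green one on top, and in GCN2 KO in complete medium, with the purple one on top.

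The remaining Abcc1 peaks were each in 1 list. One lay in intron 1 of 30 in WT in complete medium (chr16:14385127-14385427, 23719 bp downstream, rank 592 of 2336). The other lay in intron 12 of 30 in GCN2 KO in complete medium (chr16:14433118-14433418, 71710 bp downstream, rank 581 of 3141). Abcc1 was the only 1 of the 6 genes with an assigned peak in that KO list, and all 3 peaks of that list were its own. An assigned peak in all 4 lists was found for 352 protein-coding genes (1.61%), although in Abcc1 no single site was in all of them.

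Abcc2 encodes MRP2, which carries bilirubin glucuronides and other conjugates across the apical membrane of hepatocytes. In WT cells its peak in complete medium lay in intron 2 of 31 at chr19:43788945-43789245, 6787 bp downstream of the TSS, with score 59 and rank 470 of 2336. Without leucine the peak lay 4056 bp farther into the same intron, at chr19:43793001-43793301, with score 38 and rank 1524 of 5980, in a window annotated to an RMER1B repeat. That score was shared by 553 peaks of the list. The 2 WT peaks were separate sites, and no GCN2 KO peak lay within 500 kb of either. The nearest were 505 kb away in complete medium and 977 kb away without leucine.

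Abcc3 encodes MRP3, the basolateral pump for glucuronides. It had no peak in either list from complete medium and a peak in both lists without leucine, a pattern of 2.40% of protein-coding genes. WT cells without leucine had a peak in intron 1 of 30 (chr11:94384249-94384549, 8577 bp downstream) with score 18 and rank 5397 of 5980, the lowest-ranked peak of the set. The other peaks assigned to Abcc3 lay at -23047 bp in WT without leucine (chr11:94415873-94416173, rank 1524 of 5980) and at -22698 bp in GCN2 KO without leucine (chr11:94415524-94415824, rank 3925 of 4600). By the RefSeq gene table both of these were inside Cacna1g, a calcium channel gene next to Abcc3, in exon 32 of 35 and intron 32 of 34 of its transcripts. Their centres were 349 bp apart and the windows did not overlap, so they were counted as 2 regions, and with windows widened by 500 bp they became 1. Leaving out the peaks inside Cacna1g, Abcc3 had the 1 low-ranked peak of WT cells without leucine.

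Abcc4 encodes MRP4, an exporter of cyclic nucleotides and prostaglandins. One site upstream of its longer transcript was in 3 lists. It was centred at -3750 bp in WT in complete medium (chr14:118709819-118710119, score 100, rank 234 of 2336), at -3610 bp in WT without leucine (score 124, rank 236 of 5980) and at -3717 bp in GCN2 KO without leucine (score 55, rank 591 of 4600). All 3 windows were annotated to an L1M4 repeat, and their centres spanned 140 bp. In GCN2 KO in complete medium the nearest peak was 275 kb away. Regions in every list but that one numbered 72 of 14390, and 0.808% of protein-coding genes had that pattern.

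Abcc4 had 3 more sites, each in 1 list without leucine. In WT cells a peak in intron 1 of 29 (chr14:118686900-118687200) lay at -10119 bp from the internal start and ranked 3854 of 5980. In GCN2 KO cells a peak in intron 3 of 30 lay 10037 bp after that start (chr14:118666744-118667044, rank 1211 of 4600). A second KO peak lay at -18299 bp from the upstream start (chr14:118724368-118724668, rank 567 of 4600), within the predicted gene Gm27198 and an LTR repeat. In WT without leucine the site shared by 3 lists ranked 236 and the intron site 3854. The upstream KO peaks, at -18299 and -3717 bp, ranked 567 and 591.

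Abcc5 encodes MRP5, which exports cyclic GMP and other nucleotide-like anions. Its assigned peaks were both in GCN2 KO without leucine. One lay in intron 2 of 29 (chr16:20411857-20412157, 14387 bp downstream, score 46, rank 907 of 4600) and one at -16621 bp (chr16:20442865-20443165, score 48, rank 751 of 4600). Assigned peaks in that list alone were found for 1200 protein-coding genes (5.48%).

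Nearest-TSS assignment left out a further site inside Abcc5. It lay in intron 17 of 29, about 54.5 kb from the Abcc5 TSS, and was assigned to the P450 gene Cyp2ab1, on the other side, where the centre lay at -46.5 kb from its TSS. All 4 lists held it, at chr16:20371720-20372020 in WT in complete medium (score 69, rank 399 of 2336), with rank 123 of 5980 in WT without leucine (score 184), rank 214 of 3141 in GCN2 KO in complete medium (score 87) and rank 328 of 4600 in GCN2 KO without leucine (score 79). In GCN2 KO in complete medium this rank was better than that of any peak assigned to the 6 genes. The window of WT in complete medium was annotated to a (GGGA)n simple repeat, and those of the other lists, which overlap it, to the intron. Of the 14390 regions, 256 (1.78%) were in all 4 lists. This site is outside the rule that chose the peaks and was named after its values were seen. With peaks counted inside a gene or within 10 kb of it by the RefSeq table, the genes with a peak numbered 5, 6, 2 and 2 in the order WT complete, WT without leucine, GCN2 KO complete and GCN2 KO without leucine. The share of all genes under this rule is not given here, so these counts are a description only.

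**Figure D3:**
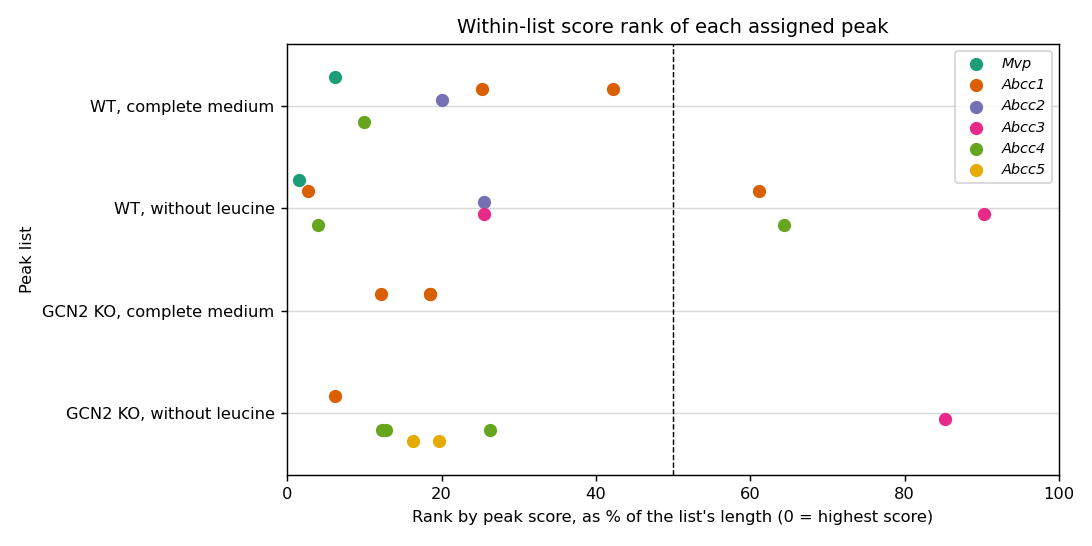
Score rank of each of the 23 assigned peaks as a percentage of the length of its list (x axis, 0 is the highest score), by list (rows) and gene (colour), with a dashed line at 50%. The points of WT in complete medium and GCN2 KO in complete medium all lie left of the line, and in GCN2 KO in complete medium a pair of Abcc1 points coincides at 18.5%.

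By score, 19 of the 23 peaks were in the higher-scoring 50% of their list. The 5 peaks of WT in complete medium ran from rank 144 to 985, the 8 of WT without leucine from 95 to 5397, the 3 of GCN2 KO in complete medium from 383 to 581 and the 7 of GCN2 KO without leucine from 288 to 3925. The 4 in the lower part were the farther Abcc1 site, the Abcc4 intron 1 site and the Abcc3 intron 1 site, all of WT without leucine, and the Abcc3 peak of GCN2 KO without leucine. The overlap counts follow the order of the lists in the rank ranges above. Of the peaks, 3 of 5, 4 of 8, 2 of 3 and 2 of 7 overlapped a peak of another list. Over all peaks the percentages were 27.0% (95% exact Clopper-Pearson interval 25.2 to 28.8, counting error only), 12.6% (11.7 to 13.4), 18.4% (17.1 to 19.8) and 14.0% (13.0 to 15.1). The intervals treat the peaks of 1 library as independent and do not cover variation between libraries. Because the genes were selected on the presence and score rank of their peaks, nothing is read from the ranks or from the excess in overlap.

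The GC content of the 23 windows ran from 0.458, at the farther Abcc1 site, to 0.611, at the Cacna1g intron, with a median of 0.528, where the lists' own medians were 0.512, 0.520, 0.522 and 0.518. The Mvp windows, at 0.595 and 0.588, lay above the upper quartile of their lists, 0.542 and 0.548. So did the Abcc2 window (0.575) and the Cacna1g exon window (0.598) of WT without leucine, above 0.548. The Cacna1g intron window of GCN2 KO without leucine (0.611) lay above 0.545. Windows annotated to repeats numbered 7 of 23, against 26.2%, 25.1%, 26.7% and 30.0% of all peaks. They included each window of the Abcc4 site at -3.7 kb and were otherwise spread over Abcc1, Abcc2 and Abcc4.

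Set by comparison, the WT list without leucine held Abcc3 beside Mvp, Abcc1, Abcc2 and Abcc4, the genes of the WT list from complete medium. The Abcc3 peaks there were the one inside Cacna1g (rank 1524) and the one at rank 5397 of 5980. Of protein-coding genes, 13.2% had a peak in that list and not in the shorter one from complete medium. The GCN2 KO list without leucine held Abcc3, Abcc4 and Abcc5 beside Abcc1, the one gene of the KO list from complete medium, and 9.29% of genes had a peak in the former alone. These differences between single lists were not tested. Counted by gene at any site, none of the 6 had an assigned peak with leucine and none without it in either genotype. That pattern held for 3.81% of genes in WT and 5.66% in KO. Single sites of Abcc1 and Abcc2 did differ in that direction, and others in the opposite one, as described above. The comparisons of genotypes that follow are also by gene. In complete medium Mvp, Abcc2 and Abcc4 had a peak in WT and not in KO (5.20% of genes), and none of the 6 had the reverse (7.17%). Without leucine Mvp and Abcc2 did so (11.2% of genes), and Abcc5 had one in KO and not in WT (7.39% of genes). These comparisons share lists, and the lists without leucine were the longer in each genotype. Cut to the 2336 highest-scoring peaks each, the lists gave 4, 5, 1 and 3 genes, with Abcc3 no longer present in KO without leucine. The matching shares of all genes at that length are not given here, so nothing is read from those counts.

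Other genes of the ATP-binding cassette (ABC) family were set beside the pumps. Of 48 such genes, 3 had an assigned peak in WT in complete medium and 14 in WT without leucine. In GCN2 KO the counts were 4 in complete medium and 6 without leucine. The shares of all protein-coding genes were 7.92%, 17.3%, 9.89% and 13.5% in the same order. In any list 19 of the 48 (39.6%) had one, against 31.1% of protein-coding genes. Within 10 kb of the TSS the counts were 1, 6, 1 and 3, against 2.28%, 6.17%, 3.03% and 4.03% of protein-coding genes. Gene length was not matched here, so nothing is read from these counts. The 1 gene with a site in every list was Abca8b, a transporter of subfamily A, in intron 1 of 38 (chr11:109991336-109991636 in WT in complete medium, 4330 bp downstream). It ranked 263 of 2336, 128 of 5980, 62 of 3141 and 148 of 4600. Abcb6, a porphyrin transporter, had an intron 1 peak in both lists without leucine (ranks 881 of 5980 and 1222 of 4600). Abca7, Abcc10, Abcd2 and Abce1 had one within 10 kb in WT without leucine alone, and Abcc8, a subunit of potassium channels, in GCN2 KO without leucine alone.

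Of 3 other vault genes, Tep1, a protein shared by vaults and telomerase, had a peak in WT without leucine (intron 4 of 54, 6704 bp downstream, rank 1312 of 5980). Parp4 and the vault RNA gene Vaultrc5 had no assigned peak in any list. Of 5 further export genes 3 had an assigned peak in some list, none within 10 kb of a TSS.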

How the data were processed

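Per the labels' protocols, NRF2 ChIP-seq libraries gave single-end 50 bp reads. BWA 0.7.12, MACS2 2.1.0 and HOMER 4.7 on build mm10 are named in the submitters' processing notes, with settings not given in the sources used here. Per the file headers, each library's peaks were called against its genotype's input from complete medium and annotated by HOMER as windows of 300 bp. The peak score is a whole number deposited with each peak, whose column of origin the sources used here do not give. GC content was deposited as a fraction of the window. Distance to the TSS was deposited in bp.

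Peaks were taken by gene name, ranked by score within a list, and joined across lists on an overlap of at least 1 bp. The joining was checked on simulated windows in well-separated clusters and on pairs of windows at the overlap limits. Regions of the whole series were merged by the same rule in a separate step outside that check. RefSeq gene and promoter tables (GRCm38.p6) gave gene bodies, the 21896 protein-coding genes of the background, matched by Entrez identifier, and sequences. All 6 genes and the 56 entries of the other gene lists matched. Python 3.11.15, pandas 2.3.3, scipy 1.17.1 and numpy 2.4.6 were used. Without replicates no test was run. All peaks of the 6 genes are named, as are genes of the other lists with a peak within 10 kb. The members and lists were chosen with earlier results of these data known. Alternatives changed the distance limit, score limit, list length, repeats, gene assignment and overlap. Input libraries were not analysed here.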

Additional observations from a re-analysis of the deposited data

How the results depend on the processing

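Of 72 alternative values, 51 stayed within 1.5 times the reported count and 21 did not. Within 1 kb of the TSS, peaks and genes with a peak were 0 in all 4 lists, since no peak lies that close. With 10 kb, peaks fell from 8 to 4 in WT without leucine, from 3 to 1 in GCN2 KO in complete medium and from 7 to 1 in GCN2 KO without leucine, where the genes with a peak fell from 4 to 1 (Abcc4). The higher-scoring 50% of each list and lists of 2336 peaks each left 5 peaks in WT without leucine. Leaving out repeat windows left 4 peaks in GCN2 KO without leucine. Assignment by the RefSeq gene table gave 2 genes in each GCN2 KO list, in place of 1 in complete medium and 4 without leucine, with no share of all genes given for that rule. Regions in exactly 2 lists numbered 2 in place of 1 with centres within 100 bp, with windows widened by 500 bp, in the higher-scoring 50% and at equal lengths. No paired analysis was possible because the labels give no replicate numbers that groups could share. Read depth is unknown, so a missing peak cannot be told apart from a shallower library.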
